A study of Mus musculus with 4 samples.

Results

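The genes of bone morphogenetic protein (BMP) and transforming growth factor beta (TGF-β) signalling were followed in embryonic mouse cortex. They were 43 genes picked by symbol: 9 ligands, the protease Bmp1, 10 receptors, 8 SMADs, 7 antagonists, 4 latent TGF-β binding proteins and the 4 Id genes. All 43 were among the 19968 genes listed in both deposited tables, and all 43 were among the 16725 genes tested. RNA was sequenced from the cortex of C57BL/6 embryos at embryonic day 15. The embryos were labelled Prdm16cKO (conditional knockout of Prdm16, called cKO) or Prdm16fl/fl (carrying the floxed alleles, called floxed). The labels give neither the Cre line nor the deleted exon, so the cells in which the allele should be lost are not known here, and no other allele or treatment is named. Prdm16 encodes a zinc-finger regulator of transcription with a PR domain.

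BMPs and TGF-βs are secreted dimers that bring together type II and type I receptor kinases at the cell surface. The type I receptor then phosphorylates SMAD proteins, which enter the nucleus with SMAD4. SMAD1, SMAD5 and SMAD9 carry BMP signals, SMAD2 and SMAD3 carry TGF-β and activin signals, and SMAD6 and SMAD7 inhibit. In the embryonic forebrain, BMPs are known as products of the dorsal midline, choroid plexus and meninges, and TGF-β signalling as a regulator of vessel growth.

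The tables held 2 libraries labelled cKO, with 19514882 counts (cKO 1) and 18579178 counts (cKO 2), and 1 floxed library with 17839662 counts. The numbers are names only, since the column names show the group of a library but not its sample. Prdm16 itself had 34.6 CPM (read counts scaled to the total of the library) in the library labelled cKO 1 and 24.1 CPM in cKO 2, against 30.2 CPM in floxed. Its ratio to floxed was 1.15 in the library labelled cKO 1 (95% exact interval 1.02 to 1.29) and 0.798 in cKO 2 (0.702 to 0.906), so the level in cKO 1 ran against its label. Which exons were deleted is not known, so reads of the gene as a whole are a limited check. Cortical markers were present in every library: 12 neuronal markers summed to 7915 CPM in the library labelled cKO 1 and 7989 CPM in cKO 2, against 7912 CPM in floxed. The libraries differed in markers of the tissues around and within the cortex, and most of these markers were lowest in cKO 2. The 15 meningeal and fibroblast markers summed to 946.7 CPM in the library labelled cKO 1 and 115.1 CPM in cKO 2, against 589.9 CPM in floxed. Each value below is therefore given per library, and comparisons with floxed are given for each cKO library alone beside the fit over both.

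Between the genotypes no member passed the test. With Benjamini-Hochberg adjustment over 16725 genes, edgeR's quasi-likelihood test (2 cKO libraries against 1 floxed library) called 0 members and 0 genes (0%). Without adjustment, 217 genes (1.3%) and 0 members had p under 0.05. DESeq2 called 5 genes and limma-voom 0, and each called 0 members. The smallest unadjusted p among the members was 0.0985, for Smad7. The median fitted log2 fold was -0.05 over the members and 0.0085 over all genes tested. With 1 floxed library the spread came from the cKO libraries alone. The sources do not tell whether the libraries are from different animals, so a p-value here covers variation among the sequenced libraries, which could be technical.

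The members past 1.5-fold were mostly those in which the library labelled cKO 2 was lower than the other libraries. A member was counted as past 1.5-fold when the ratio of CPM between a pair of libraries exceeded 1.5 in either direction and its 95% exact interval excluded 1. This describes the libraries and not the genotypes. In the library labelled cKO 1 over cKO 2, 9 of 43 members (20.9%) were higher past 1.5-fold, beside 10.9% of all genes tested, and 0 were lower, beside 2.15% of all genes. These 9 were Bmp4, Bmp5, Bmp6, Bmp7, Tgfb1, Tgfbr2, Tgfbr3, Smad3 and Nbl1, with ratios between 1.55 and 10.5. The other 34 had ratios between 0.869 and 1.64.

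Against floxed, the library labelled cKO 2 had 9 members lower past 1.5-fold (20.9%), beside 9.62% of all genes, and 0 higher, beside 2.4% of all genes. They were Bmp4, Bmp5, Bmp6, Bmp7, Tgfb1, Tgfbr2, Tgfbr3, Nbl1 and Ltbp2. In the library labelled cKO 1 over floxed, 1 member was higher (Bmpr1b, 2.33%), beside 3.72% of all genes, and 1 was lower (Ltbp2, 2.33%), beside 2.34% of all genes. These comparisons share the floxed library. The comparison of cKO 2 with floxed and that of cKO 1 with cKO 2 share the library cKO 2, so the overlap of their lists is in part built in. The median log2 ratio of the members was 0.10 for cKO 1 over floxed, -0.16 for cKO 2 over floxed and 0.16 for cKO 1 over cKO 2, where all genes tested had medians of 0.01, -0.04 and 0.06.

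**Figure D1:**
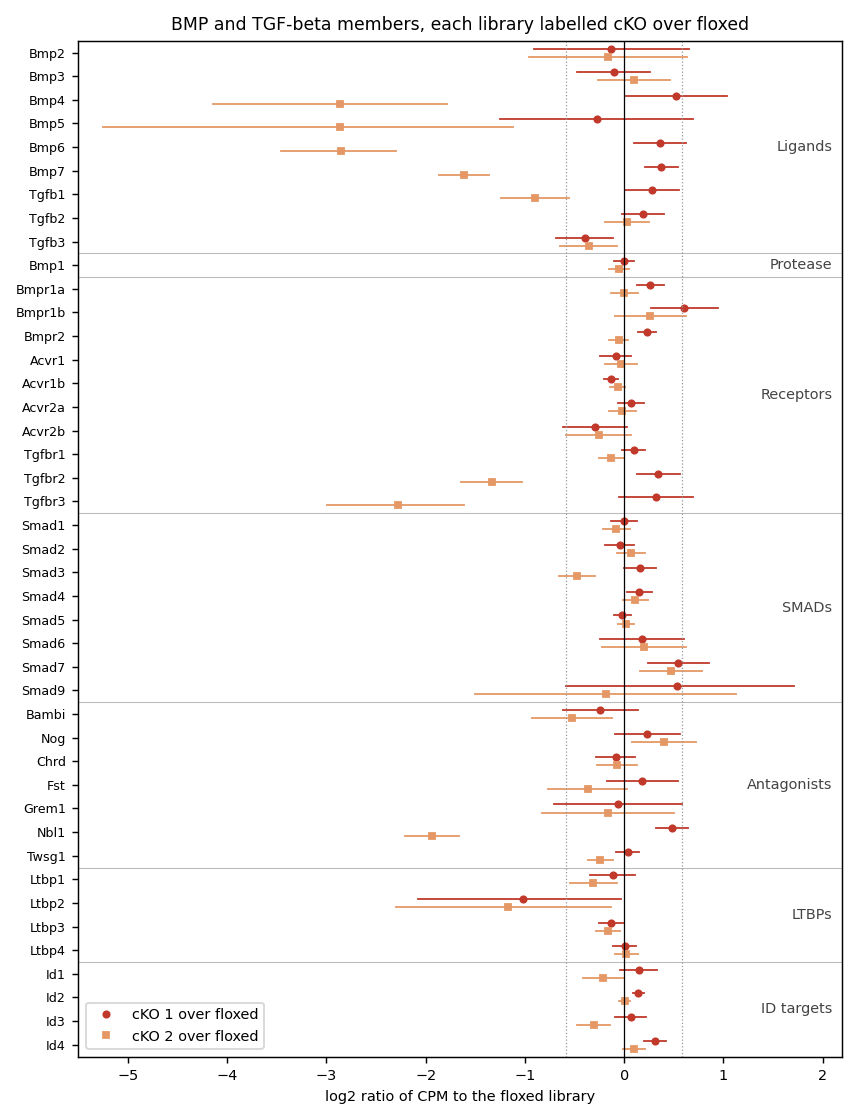
Ratio of CPM to the floxed library for each of the 43 members, by role, as log2 on the horizontal axis; circles are the library labelled cKO 1, squares are cKO 2, bars are 95% exact intervals of the count ratio, and dotted lines mark 1.5-fold. The squares of Bmp4, Bmp5, Bmp6, Bmp7, Tgfb1, Tgfbr2, Tgfbr3 and Nbl1 lie left of the lower dotted line with their circles on the other side of it, and most other pairs lie close to 0.

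Both cKO libraries were above floxed for 10 members (23.3%), beside 27.7% of all genes tested, and both were below it for 14 members (32.6%), beside 31.8% of all genes. The 10 were Tgfb2, Bmpr1a, Bmpr1b, Smad4, Smad6, Smad7, Nog, Ltbp4, Id2 and Id4. The 14 were Bmp1, Bmp2, Bmp5, Tgfb3, Acvr1, Acvr1b, Acvr2b, Smad1, Bambi, Chrd, Grem1, Ltbp1, Ltbp2 and Ltbp3. For the remaining 19 members the floxed level lay between the 2 cKO levels.

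Of the ligands, 5 of 9 were higher past 1.5-fold in the library labelled cKO 1 than in cKO 2, beside 10.9% of all genes. Of these 5, 4 were BMPs. Bmp4 (ENSMUSG00000021835, GRCm38 chr14:46383520-46390669, minus strand), a BMP of the dorsal telencephalic midline, had 4.51 CPM in the library labelled cKO 1 and 0.431 CPM in cKO 2, against 3.14 CPM in floxed. The level in cKO 2 rested on 8 counts, and cKO 1 exceeded it 10.5-fold (95% exact interval 5.09 to 25.0). Bmp6 (ENSMUSG00000039004, chr13:38345716-38499728, plus strand), known in adults for controlling hepcidin and iron, had 15.01 CPM in the library labelled cKO 1 and 1.61 CPM in cKO 2, against 11.7 CPM in floxed. For both genes the cKO 2 level was the low one, at 0.137 of the floxed level for Bmp4 (0.0565 to 0.289) and 0.139 for Bmp6 (0.0911 to 0.204). The level in the library labelled cKO 1 exceeded floxed 1.44-fold for Bmp4 (1.02 to 2.05) and 1.29-fold for Bmp6 (1.07 to 1.55).

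Bmp7 (ENSMUSG00000008999, chr2:172868012-172940321, minus strand) is made by meninges and choroid plexus and acts on radial glia. It had 36.8 CPM in the library labelled cKO 1 and 9.31 CPM in cKO 2, against 28.4 CPM in floxed. The ratio of cKO 1 to cKO 2 was 3.95 (3.34 to 4.69), and cKO 2 stood at 0.328 of floxed (0.274 to 0.390). Bmp5 (ENSMUSG00000032179, chr9:75775364-75900310, plus strand), a close relative of Bmp6 and Bmp7, was low, and in cKO 2 near the limit of detection. It had 19 counts in the library labelled cKO 1 and 3 in cKO 2, against 21 in floxed, or 0.974, 0.162 and 1.18 CPM. Its ratio of cKO 2 to floxed was 0.137 (0.0262 to 0.459), but 46.7% of its exon bases overlap the opposite-strand gene Gm26903, and the library kit does not mark strand, so these reads cannot be assigned with certainty.

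The fit over both cKO libraries placed none of these BMPs apart from floxed. The cKO mean was 2.47 ± 2.88 CPM for Bmp4, 8.31 ± 9.48 CPM for Bmp6 and 23.1 ± 19.4 CPM for Bmp7 (SD, n = 2), so the SD was about as large as the mean. Their fitted log2 folds were -0.34 (SE 1.199), -0.49 (SE 1.14) and -0.30 (SE 0.75), each with an adjusted p of 1 in edgeR after Benjamini-Hochberg adjustment. The sign of all 3 depended on which cKO library was left out, and it turned positive without cKO 2. With a cKO library left out, only the log2 ratio of the other to floxed (TMM scaling) remained, with no fit or test possible. Without cKO 1 this ratio was -2.80 for Bmp4, -2.80 for Bmp6 and -1.57 for Bmp7. Without cKO 2 it was 0.51, 0.36 and 0.36.

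For the other BMP ligands, no ratio between libraries had an interval that excluded 1. Bmp3, an atypical BMP that opposes other BMPs in bone, had 6.46 CPM in the library labelled cKO 1 and 7.43 CPM in cKO 2, against 6.95 CPM in floxed. Bmp2, the closest relative of Bmp4, lay between 1.51 and 1.68 CPM in the 3 libraries, on 28 to 30 counts. Summed over the 6 BMP ligands, the level was 65.3 CPM in the library labelled cKO 1 and 20.5 CPM in cKO 2, against 53.0 CPM in floxed. Reads summed to 1.23 times the floxed level in the library labelled cKO 1 (1.13 to 1.34) and to 0.386 times in cKO 2 (0.342 to 0.435).

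Of the TGF-β ligands, Tgfb1 alone was past 1.5-fold. Tgfb1 (ENSMUSG00000002603, chr7:25687002-25705077, plus strand), which endothelial and immune cells are known to make, had 13.6 CPM in the library labelled cKO 1 and 6.03 CPM in cKO 2, against 11.2 CPM in floxed. The ratio of cKO 1 to cKO 2 was 2.26 (1.81 to 2.85). Tgfb2, a TGF-β known for roles in neural and heart development, had 20.9 CPM in the library labelled cKO 1 and 18.7 CPM in cKO 2, against 18.3 CPM in floxed. Tgfb3, known for palate fusion, had 9.74 CPM in the library labelled cKO 1 and 10.01 CPM in cKO 2, against 12.8 CPM in floxed. Its ratio to floxed was 0.758 in the library labelled cKO 1 (0.622 to 0.923) and 0.780 in cKO 2 (0.639 to 0.951), and its fitted log2 fold was -0.36 (SE 0.25, adjusted p = 1 in edgeR). The protease Bmp1, which cleaves procollagens and chordin and is no BMP despite its name, had 85.7 CPM in the library labelled cKO 1 and 82.8 CPM in cKO 2, against 85.8 CPM in floxed.

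The order of the ligands by level differed with the library. Per kilobase of exon, Bmp7 came first in the library labelled cKO 1 (9.15 CPM per kb, 35.6% of the 9 ligands summed) and in floxed (7.07 CPM per kb, 31.6%). In cKO 2 Tgfb2 came first at 3.23 CPM per kb, followed by Tgfb3 at 2.96 and Bmp7 at 2.32 CPM per kb (19.7%).

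**Figure D2:**
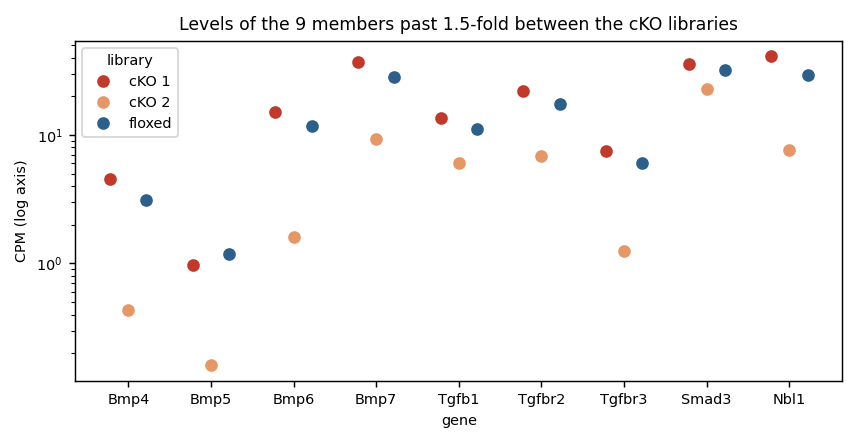
Level in CPM (log axis) of the 9 members past 1.5-fold between the libraries labelled cKO, 1 point per library, in the order cKO 1, cKO 2, floxed within each gene. The cKO 2 point is the lowest of each gene, from 0.162 CPM for Bmp5 to 23.0 CPM for Smad3; cKO 1 is the highest in each gene except Bmp5, where floxed is.

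Windows around the RefSeq start sites of some members are shown to let the sequences be set side by side. Whether these sequences play a part in the levels was not tested. RefSeq windows (GRCm38.p6) from 250 bases before to 50 bases after a RefSeq start site were at hand for 30 of 43 members. The start site lay within 100 bases of the gene's start in the deposited tables for 23 of the 30 and farther off for 7, up to 187161 bases for Bmpr1b. The windows below are those of Bmp4 (chr14:46390620-46390919, minus strand), Bmp6 (chr13:38345466-38345765, plus strand), Tgfbr2 (chr9:116175314-116175613, minus strand) and Nbl1 (chr4:139092921-139093220, minus strand), a BMP pair, a receptor and an antagonist that were low in cKO 2, and of the BMP target Id3 (chr4:136143572-136143871, plus strand), which was not past 1.5-fold. The RefSeq start is 325 bases inside Id3 as the tables place it, so that window lies wholly within the gene, and it is at most 23 bases from the table's start for the other 4. Capitals mark GGCGCC, a GC-rich motif known for SMAD1 and SMAD5, and CAGAC, which reads GTCTG on the other strand, a motif known for SMAD3 and SMAD4. Both strands were searched, GGCGCC reads the same on both, and no match overlaps another in the windows printed.
Bmp4: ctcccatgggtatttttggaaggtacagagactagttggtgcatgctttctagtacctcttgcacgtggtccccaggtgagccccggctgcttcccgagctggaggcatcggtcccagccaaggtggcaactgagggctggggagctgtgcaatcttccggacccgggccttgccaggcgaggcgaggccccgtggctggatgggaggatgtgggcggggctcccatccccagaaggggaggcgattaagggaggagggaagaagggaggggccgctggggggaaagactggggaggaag
Bmp6: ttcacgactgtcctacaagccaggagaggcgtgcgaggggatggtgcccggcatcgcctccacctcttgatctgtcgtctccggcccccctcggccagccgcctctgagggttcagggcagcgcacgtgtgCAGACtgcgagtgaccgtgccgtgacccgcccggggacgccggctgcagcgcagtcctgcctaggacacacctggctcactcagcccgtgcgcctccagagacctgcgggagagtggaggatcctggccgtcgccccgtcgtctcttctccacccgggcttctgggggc
Tgfbr2: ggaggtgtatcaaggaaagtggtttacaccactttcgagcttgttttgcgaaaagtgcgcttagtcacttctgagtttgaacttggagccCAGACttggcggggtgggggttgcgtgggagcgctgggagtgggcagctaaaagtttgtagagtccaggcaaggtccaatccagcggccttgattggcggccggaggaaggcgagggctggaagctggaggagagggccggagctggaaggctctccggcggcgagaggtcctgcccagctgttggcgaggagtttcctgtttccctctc
Nbl1: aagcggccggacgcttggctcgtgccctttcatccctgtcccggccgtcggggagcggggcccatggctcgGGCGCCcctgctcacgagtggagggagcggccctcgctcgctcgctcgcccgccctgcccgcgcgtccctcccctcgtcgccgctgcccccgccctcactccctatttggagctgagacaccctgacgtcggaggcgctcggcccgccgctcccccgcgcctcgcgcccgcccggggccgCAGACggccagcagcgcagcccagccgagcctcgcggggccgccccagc
Id3: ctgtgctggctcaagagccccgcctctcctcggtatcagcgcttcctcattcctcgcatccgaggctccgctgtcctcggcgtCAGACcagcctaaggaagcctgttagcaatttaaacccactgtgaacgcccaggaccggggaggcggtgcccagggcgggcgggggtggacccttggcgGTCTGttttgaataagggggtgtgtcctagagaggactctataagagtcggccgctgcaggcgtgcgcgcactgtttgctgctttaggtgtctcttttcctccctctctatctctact

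The Bmp4 window held neither motif, and the windows of Bmp6 and Tgfbr2 held CAGAC alone. The Nbl1 window held both and the Id3 window held CAGAC on each strand. Over the 30 member windows, 11 (36.7%) held GGCGCC and 15 (50%) held CAGAC, where 11.9% and 49.6% of 32851 RefSeq windows of that length did. The median GC content was 67% in the member windows and 52.7% in all windows. Of the 7 members past 1.5-fold between the cKO libraries that had a window, 1 held GGCGCC and 4 held CAGAC, beside 10 and 11 of the other 23 members. These sets are unlike, since the 7 windows more than 100 bases from the gene's start were all among the other 23. Of those distant windows, the ones of Bmpr1a, Bmpr2, Id2 and Id4 held GGCGCC. A match is a string of letters in the window and was not tested for binding.

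Among the receptors, the TGF-β receptors Tgfbr2 and Tgfbr3 were past 1.5-fold between the cKO libraries and the other 8 of 10 were not. Of all genes tested, 10.9% were higher and 2.15% lower in this pair, so 2 of 10 does not set the receptors apart. Tgfbr2 (ENSMUSG00000032440, chr9:116084293-116175360, minus strand), the type II receptor of TGF-β, had 22.1 CPM in the library labelled cKO 1 and 6.89 CPM in cKO 2, against 17.4 CPM in floxed. Tgfbr3 (ENSMUSG00000029287, chr5:107106570-107289629, minus strand), the co-receptor betaglycan, had 7.48 CPM in the library labelled cKO 1 and 1.24 CPM in cKO 2, against 6.00 CPM in floxed. The ratio of cKO 1 to cKO 2 was 3.21 for Tgfbr2 (2.63 to 3.94) and 6.04 for Tgfbr3 (3.88 to 9.83), and cKO 2 stood at 0.397 (0.320 to 0.489) and 0.206 (0.126 to 0.326) of floxed. Tgfbr1, the type I receptor that works with Tgfbr2, had 68.1 CPM in the library labelled cKO 1 and 58.2 CPM in cKO 2, against 63.6 CPM in floxed. Its ratio of cKO 1 to cKO 2 was 1.17 (1.08 to 1.27), so the RNAs of Tgfbr1 and Tgfbr2 did not share 1 ratio between these libraries. Whether these RNAs came from the same cells was not tested.

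Of the BMP receptors, Bmpr1b alone was past 1.5-fold, in 1 pair of libraries. Bmpr1a, the main type I BMP receptor of neural progenitors, had 55.4 CPM in the library labelled cKO 1 and 46.2 CPM in cKO 2, against 46.1 CPM in floxed. Bmpr1b (ENSMUSG00000052430, chr3:141837136-142169425, minus strand), a related type I receptor of the dorsal neural tube, had 10.2 CPM in the library labelled cKO 1 and 8.02 CPM in cKO 2, against 6.67 CPM in floxed. It was the member past 1.5-fold above floxed in cKO 1, at 1.52-fold (1.21 to 1.93), with 1.202-fold in cKO 2 (0.939 to 1.54) and a fitted log2 fold of 0.46 (SE 0.30, adjusted p = 1 in edgeR). Bmpr2, the type II BMP receptor, had 115 CPM in the library labelled cKO 1 and 94.5 CPM in cKO 2, against 97.9 CPM in floxed.

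The activin receptors and Acvr1 were not past 1.5-fold in any pair of libraries. Acvr1, a type I receptor for BMPs despite its name, had 33.4 CPM in the library labelled cKO 1 and 34.6 CPM in cKO 2, against 35.4 CPM in floxed. Acvr1b, the type I activin receptor, had 159 CPM in the library labelled cKO 1 and 166 CPM in cKO 2, against 174 CPM in floxed. Per kilobase it was the highest receptor in every library, with 35.9 CPM per kb in the library labelled cKO 1 and 37.7 in cKO 2, against 39.4 CPM per kb in floxed. Of the type II receptors that BMPs and activins share, Acvr2a had 51.9 CPM in the library labelled cKO 1 and 48.9 CPM in cKO 2, against 49.5 CPM in floxed, and Acvr2b 7.89 and 8.07 CPM, against 9.64 CPM in floxed.

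The SMADs, which carry the signal inside the cell, kept a near-constant sum: 329 CPM in the library labelled cKO 1 and 317.8 CPM in cKO 2, against 317.6 CPM in floxed. The ratio of their summed reads to floxed was 1.04 in the library labelled cKO 1 (0.9995 to 1.07) and 1.001 in cKO 2 (0.965 to 1.04). Of the BMP SMADs, Smad1 had 52.3 CPM in the library labelled cKO 1 and 49.7 CPM in cKO 2, against 52.4 CPM in floxed, and Smad5 had 121 and 124 CPM, against 122 CPM in floxed. The third, Smad9, was low throughout, with 19 counts in the library labelled cKO 1 and 11 in cKO 2, against 12 in floxed. Its ratio of cKO 1 to cKO 2 was 1.64, but the interval included 1 (0.744 to 3.83).

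Of the TGF-β SMADs, Smad3 differed between the cKO libraries past 1.5-fold and Smad2 did not. Smad3 (ENSMUSG00000032402, chr9:63646767-63757994, minus strand) had 35.7 CPM in the library labelled cKO 1 and 23.0 CPM in cKO 2, against 32.0 CPM in floxed. Its ratio of 1.55 (1.37 to 1.75) lay just inside the threshold and fell under it with TMM scaling of the libraries, while Fst at 1.46 lay just outside. Smad2, which shares the receptors of Smad3, had 42.9 CPM in the library labelled cKO 1 and 46.5 CPM in cKO 2, against 44.3 CPM in floxed. The common partner Smad4 had 58.8 CPM in the library labelled cKO 1 and 57.2 CPM in cKO 2, against 52.9 CPM in floxed.

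The inhibitory Smad7 (ENSMUSG00000025880, chr18:75367529-75395935, plus strand), itself a target gene of TGF-β signalling, had the smallest unadjusted p of the members. It had 238 counts in the library labelled cKO 1 and 215 in cKO 2, against 149 in floxed, or 12.2, 11.6 and 8.35 CPM. Both cKO libraries lay above floxed, at 1.46-fold (1.19 to 1.80) and 1.39-fold (1.12 to 1.72). The fitted log2 fold was 0.53 (SE 0.26, unadjusted p = 0.0985, adjusted p = 1 in edgeR), so the difference did not pass the test. Smad6, the inhibitor of BMP signals, had 5.59 CPM in the library labelled cKO 1 and 5.65 CPM in cKO 2, against 4.93 CPM in floxed. Per kilobase the order of the SMADs began with Smad5, Smad4 and Smad1 in every library.

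Of the antagonists, which bind ligands outside the cell or block receptors, 1 of 7 was past 1.5-fold. Between the cKO libraries, 10.9% of all genes tested were higher and 2.15% lower past it, so 1 of 7 does not set this role apart. Nbl1 (ENSMUSG00000041120, chr4:139082284-139092993, minus strand), also called DAN, a secreted BMP antagonist, had 41.1 CPM in the library labelled cKO 1 and 7.70 CPM in cKO 2, against 29.4 CPM in floxed. The ratio of cKO 1 to cKO 2 was 5.33 (4.46 to 6.42). Per kilobase Nbl1 led the antagonists in the library labelled cKO 1 (20.2 CPM per kb) and in floxed (14.5), and in cKO 2 it stood at 3.79 CPM per kb, behind Twsg1 at 10.7 and Nog at 6.07 CPM per kb.

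The antagonists noggin, chordin and Twsg1 were not past 1.5-fold in any pair of libraries. Nog (noggin), which sequesters BMPs, had 9.17 CPM in the library labelled cKO 1 and 10.3 CPM in cKO 2, against 7.79 CPM in floxed. Chrd (chordin), which holds BMPs until a protease cleaves it, had 22.1 CPM in the library labelled cKO 1 and 22.3 CPM in cKO 2, against 23.5 CPM in floxed. Twsg1, which binds chordin and BMP, had 67.0 CPM in the library labelled cKO 1 and 55.3 CPM in cKO 2, against 65.3 CPM in floxed. The fitted log2 fold was 0.34 for Nog (SE 0.29), -0.06 for Chrd (SE 0.18) and -0.08 for Twsg1 (SE 0.16), each with an adjusted p of 1 in edgeR.

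The remaining antagonists were low. Fst (follistatin), which neutralises activins, had 7.64 CPM in the library labelled cKO 1 and 5.22 CPM in cKO 2, against 6.73 CPM in floxed. Bambi, a pseudoreceptor without a kinase, had 5.89 CPM in the library labelled cKO 1 and 4.84 CPM in cKO 2, against 6.95 CPM in floxed. Grem1 (gremlin), which binds BMPs, had 39 to 44 counts in the 3 libraries.

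The latent TGF-β binding proteins tether inactive TGF-β to the matrix, and 0 of 4 were past 1.5-fold between the cKO libraries. With 10.9% of all genes tested higher and 2.15% lower there, 0 of 4 does not set them apart. Ltbp3 had 61.5 CPM in the library labelled cKO 1 and 60.2 CPM in cKO 2, against 67.4 CPM in floxed. Ltbp4 had 66.3 CPM in the library labelled cKO 1 and 67.1 CPM in cKO 2, against 66.0 CPM in floxed, and Ltbp1 had 17.1 and 14.9 CPM, against 18.5 CPM in floxed. Ltbp2 (ENSMUSG00000002020, chr12:84783212-84876532, minus strand), an elastic-fibre protein that does not bind latent TGF-β, was the member past 1.5-fold below floxed in each cKO library. It had 14 counts in the library labelled cKO 1 and 12 in cKO 2, against 26 in floxed, with ratios of 0.492 (0.238 to 0.978) and 0.443 (0.204 to 0.910). Its fitted log2 fold was -1.07 (SE 0.61, adjusted p = 1 in edgeR), and 9.34% of its exon bases overlap the opposite-strand gene D030025P21Rik.

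The Id genes are direct BMP targets in many cells and encode inhibitors of basic helix-loop-helix factors, and none was past 1.5-fold between any libraries. Id1 had 27.0 CPM in the library labelled cKO 1 and 20.9 CPM in cKO 2, against 24.3 CPM in floxed. Id3 had 38.4 CPM in the library labelled cKO 1 and 29.7 CPM in cKO 2, against 36.7 CPM in floxed. For both the cKO 2 level was the lowest, at 0.861 of floxed for Id1 (0.749 to 0.989) and 0.809 for Id3 (0.721 to 0.907).

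Id2 and Id4 were above floxed in both cKO libraries. Id2, the most abundant of the 4 per kilobase in every library, had 294 CPM in the library labelled cKO 1 and 268 CPM in cKO 2, against 267 CPM in floxed. Its ratio to floxed was 1.10 in the library labelled cKO 1 (1.06 to 1.15), and in cKO 2 it was 1.004, with an interval that included 1 (0.965 to 1.045). Id4, known for its role in neural progenitors, had 85.4 CPM in the library labelled cKO 1 and 73.8 CPM in cKO 2, against 68.8 CPM in floxed. The ratio of Id4 to floxed was 1.24 in the library labelled cKO 1 (1.15 to 1.34) and 1.07 in cKO 2 (0.992 to 1.16), and the fitted log2 fold was 0.23 (SE 0.14, adjusted p = 1 in edgeR).

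Set side by side, the summed levels of the roles differed in how far the library labelled cKO 2 lay under floxed. The BMP ligands summed to 0.386 of floxed in cKO 2, the antagonists to 0.759 (0.715 to 0.805), the TGF-β receptors to 0.763 (0.707 to 0.823), the TGF-β ligands to 0.821 (0.738 to 0.913) and the latent binding proteins to 0.931 (0.883 to 0.983). The BMP and activin receptors summed to 0.970 (0.939 to 1.001), the Id genes to 0.989 (0.957 to 1.02) and the SMADs to 1.001. In the library labelled cKO 1 the same sums lay between 0.949 (latent binding proteins) and 1.23 (BMP ligands) of floxed. These sums weight abundant genes most and cover counting error only. They do not stand for each gene of a role. Of the antagonists in cKO 2, Nbl1 stood at 0.26 of floxed and the others between 0.697 (Bambi) and 1.32 (Nog). Most of the Id sum was Id2, at 1.004 of floxed in cKO 2, with Id4 at 1.07, Id1 at 0.861 and Id3 at 0.809.

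**Figure D3:**
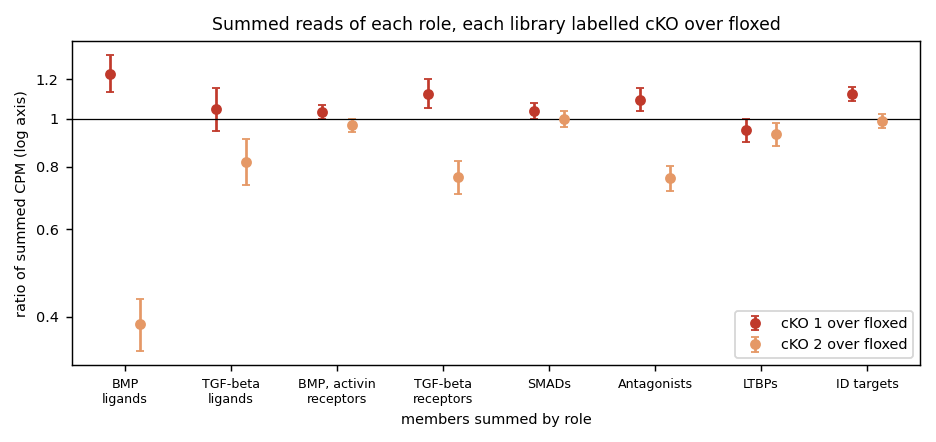
Ratio of the summed reads of each role to the floxed library (log axis), scaled to library totals, for the library labelled cKO 1 and for cKO 2; bars are 95% exact intervals of counting error. The BMP ligands spread most, from 1.23 in cKO 1 to 0.386 in cKO 2, and the latent binding proteins (LTBPs) least, at 0.949 in cKO 1 and 0.931 in cKO 2.

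Further genes of the pathway were read from lists ordered by role. Of 90 further listed genes, 82 were in both tables and 74 were tested, and edgeR called 0 of them, with 2 at an unadjusted p under 0.05. These 2 were Tgif1, a homeodomain repressor that binds SMADs, and Rgma, a BMP co-receptor and axon guidance protein. Tgif1 had 16.8 CPM in the library labelled cKO 1 and 16.2 CPM in cKO 2, against 9.03 CPM in floxed (fitted log2 fold 0.89, SE 0.23, unadjusted p = 0.0138, adjusted p = 1). Rgma had 214 CPM in the library labelled cKO 1 and 206.5 CPM in cKO 2, against 156.8 CPM in floxed (0.44, SE 0.12, unadjusted p = 0.0167, adjusted p = 1).

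Between the cKO libraries, 19 of these 74 were higher past 1.5-fold in the library labelled cKO 1 and 0 were lower, beside the 10.9% and 2.15% of all genes given above. They were 12 of 24 further antagonists and matrix regulators, 4 of 11 further targets, 3 of 8 further receptors, 0 of 24 SMAD cofactors and 0 of 7 further ligands. Dcn (decorin), a matrix proteoglycan that binds TGF-β and also stands in the meningeal marker list, had 56.7 CPM in the library labelled cKO 1 and 2.69 CPM in cKO 2, against 33.9 CPM in floxed. Acvrl1, the endothelial type I receptor, had 17.6 CPM in the library labelled cKO 1 and 7.86 CPM in cKO 2, against 15.9 CPM in floxed, and its co-receptor Eng (endoglin) 53.8 and 30.9 CPM, against 45.2 CPM in floxed. Sostdc1, a BMP and WNT antagonist, had 12.2 CPM in the library labelled cKO 1 and 2.75 CPM in cKO 2, against 10.1 CPM in floxed. Lrrc32 (GARP), which displays latent TGF-β, had 9.38 CPM in the library labelled cKO 1 and 2.75 CPM in cKO 2, against 8.75 CPM in floxed.

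Of the further targets, Msx1, a BMP-induced homeobox gene of the dorsal midline that also stands in the choroid plexus list, had 12.8 CPM in the library labelled cKO 1 and 2.91 CPM in cKO 2, against 12.5 CPM in floxed. Tgfbi, a TGF-β-induced matrix protein, had 9.74 CPM in the library labelled cKO 1 and 1.29 CPM in cKO 2, against 5.16 CPM in floxed. Hes1, which is also a radial glia marker, did not share this split, with 21.0 CPM in the library labelled cKO 1 and 23.6 CPM in cKO 2, against 18.7 CPM in floxed.

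The other genes that the naming rule picked were not past 1.5-fold between the cKO libraries, and some were past it against floxed. Tgif1, given above, was higher than floxed in the library labelled cKO 1 (1.86-fold, 1.54 to 2.26) and in cKO 2 (1.795-fold, 1.48 to 2.19). Inhba, the activin A subunit, had 3.64 CPM in the library labelled cKO 1 and 2.58 CPM in cKO 2, against 5.94 CPM in floxed (fitted log2 fold -0.92, SE 0.38, adjusted p = 1 in edgeR). It was lower than floxed past 1.5-fold in both, at 0.612 in the library labelled cKO 1 (0.447 to 0.835) and 0.435 in cKO 2 (0.3025 to 0.617). Bmper, which binds BMPs and in vessels can help or hinder them, had 17.3 CPM in the library labelled cKO 1 and 21.7 CPM in cKO 2, against 12.4 CPM in floxed (0.68, SE 0.26, adjusted p = 1 in edgeR), and cKO 2 was past 1.5-fold above floxed, at 1.755 (1.49 to 2.08). Hipk2, a kinase that binds SMADs, had 17.0 CPM in the library labelled cKO 1 and 11.8 CPM in cKO 2, against 21.9 CPM in floxed, and was past 1.5-fold below floxed in cKO 2, at 0.540 (0.456 to 0.639). Gdf11, a ligand of activin receptors, lay between 27.3 and 32.3 CPM, Inha, the inhibin subunit, between 37.9 and 47.4 CPM, and Zeb1, a repressor that binds SMADs, between 51.4 and 68.8 CPM.

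Most markers of non-neural cells and of choroid plexus were low in the same library as the members above. Against floxed, 3 markers of the meningeal, vascular, macrophage and choroid plexus lists were higher in cKO 2: Zic1 (81.5 CPM in cKO 2, against 64.9 CPM in floxed), Rspo2 (5.97 CPM, against 5.27 CPM in floxed) and Rspo3 (31.6 CPM, against 24.3 CPM in floxed). The library labelled cKO 1 also differed from floxed. Higher past 1.5-fold were 11 of 15 meningeal, 4 of 10 macrophage and 2 of 14 endothelial markers, beside 3.72% of all genes tested. In the pericyte and choroid plexus lists this held for 0 markers. Between the cKO libraries, 10.9% of all genes tested were higher past 1.5-fold in cKO 1, the share to set beside each list. All 15 meningeal markers were higher in the library labelled cKO 1 than in cKO 2, 14 of them past 1.5-fold. All 14 endothelial markers were higher too, 13 past 1.5-fold, with a sum of 533 CPM in the library labelled cKO 1 and 277.5 CPM in cKO 2, against 446 CPM in floxed. The same held for all 10 pericyte and smooth muscle markers, 8 past 1.5-fold, which summed to 275.1 CPM in the library labelled cKO 1 and 110.6 CPM in cKO 2, against 223.2 CPM in floxed. Of these, Tagln was too low to compare and was not tested, with 3 counts in cKO 1 and 0 in cKO 2, against 6 in floxed.

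The 12 choroid plexus and hem markers summed to 1148 CPM in the library labelled cKO 1 and 377.8 CPM in cKO 2, against 1144 CPM in floxed; 12 were higher in the library labelled cKO 1 than in cKO 2, 9 of them past 1.5-fold. Most of that sum was Ttr (transthyretin), with 972.6 CPM in the library labelled cKO 1 and 295.2 CPM in cKO 2, against 996.1 CPM in floxed. The 10 macrophage and microglia markers summed to 155.6 CPM in the library labelled cKO 1 and 45.5 CPM in cKO 2, against 111.4 CPM in floxed, with 9 past 1.5-fold and Cd163 at 0 counts in cKO 2. The 12 radial glia markers summed to 2524 CPM in the library labelled cKO 1 and 2469 CPM in cKO 2, against 1867 CPM in floxed. Of these 12, 11 were above floxed in the library labelled cKO 1 and 8 in cKO 2, with 1 past 1.5-fold in each. Their median log2 ratio to floxed was 0.18 in the library labelled cKO 1 and 0.23 in cKO 2. Between the cKO libraries, 0 of the radial glia and neuronal markers were past 1.5-fold. The 8 red cell markers summed to 1594 CPM in the library labelled cKO 1 and 1288 CPM in cKO 2, against 1752 CPM in floxed. The list was split, with 5 of the 8 above floxed in the library labelled cKO 1 and 4 in cKO 2. Their median log2 ratio to floxed was 0.21 in the library labelled cKO 1 and -0.07 in cKO 2. The part of these cells in the levels of the members was not tested, and in whole tissue fewer cells of a type and less RNA per cell cannot be told apart.

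**Figure D4:**
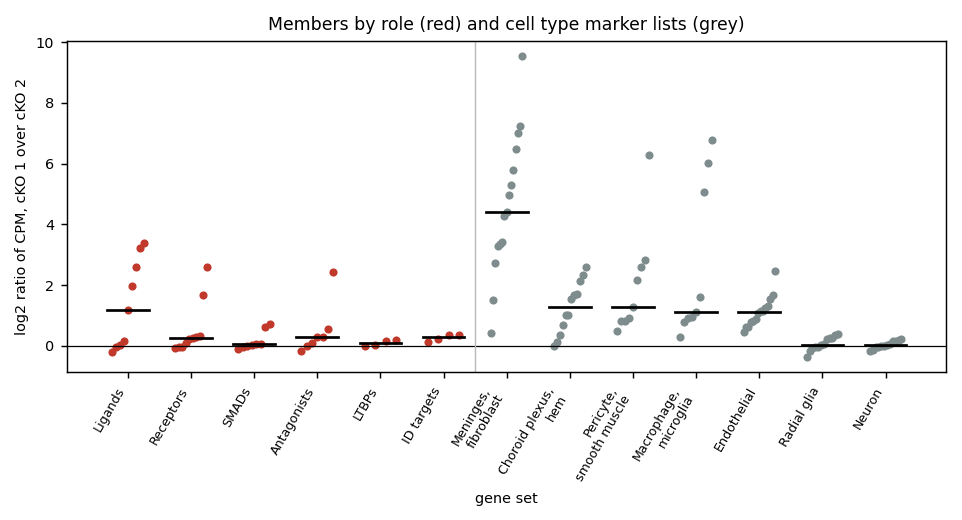
log2 ratio of CPM in the library labelled cKO 1 over cKO 2 for each member by role (red) and for each marker by cell type list (grey), with the median of each set as a bar; Bmp1, the red cell list and markers with 0 counts in cKO 2 are not drawn. The ligands have a median of 1.18 and the other member roles medians of 0.06 to 0.29, the next 5 lists have medians of 1.10 to 4.40, and the radial glia and neuronal lists have medians of 0.04 and 0.01.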

How the data were processed

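RNA was extracted with Trizol and libraries were made from 2 µg of RNA with a TruSeq kit, per the labels' protocols. The authors deposited raw counts per gene in 2 tables, per the file headers. The submitters' processing notes list the tools TopHat2 2.0.12, HTSeq 0.6.0 and Bowtie2 2.2.3 and the build mm9. The positions in the tables are those of GRCm38: of 21767 genes in either table, 21714 are in GENCODE M21, where 21690 overlap and 19557 have the same start and end. The sources used here do not give the counting options. The kit does not mark strand, so reads of overlapping genes on opposite strands cannot be told apart.

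The groups came from KO or WT in the column names and sample titles; they do not show which sample a library was. The floxed counts were identical in both tables (19968 of 19968 shared genes) and were used once. Of the 2 samples labelled floxed, 1 was not analysed here. The design text speaks of triplicates and telencephalic tissue, where the labels give 2 samples per group and cortex, and the word Blood in the title of 1 sample per group is unexplained. Another 4 columns of normalized values were not used.

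CPM are counts scaled to each library's total. A count of 0 allows a level of up to 3 counts, or 0.154 CPM in cKO 1, 0.162 in cKO 2 and 0.168 in floxed. Ratios of counts carry 95% exact Clopper-Pearson bounds of the binomial given both counts (scipy 1.17.1). Without molecular identifiers these bounds cover counting error only. The test was run in R 4.3.3 with edgeR 4.0.16 (default filter, minimum count 10; TMM; quasi-likelihood test with 1 residual degree of freedom; biological coefficient of variation 0.218; Benjamini-Hochberg adjustment over 16725 genes). SE, the standard error, was taken as the fitted log2 fold over the square root of F. The fit was also run on simulated counts with the same spread for every gene. That run does not cover genes that differ widely between the cKO libraries. Alternatives were DESeq2 1.42.0, limma-voom (limma 3.58.1), DESeq2 size factors, library totals, no filter, other fold thresholds and leaving out a cKO library. Levels are compared between genes only per kilobase of merged exon (GENCODE M21).

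Members, lists and tests were chosen with earlier results of these data known. A member was described per library if it reached 5 CPM, or 1 CPM with a pair of libraries past 1.5-fold, which left Bmp2, Smad9 and Grem1 to be given by counts. Of each further pathway list, genes of at least 5 CPM were named by the largest fitted folds and the largest ratios between the cKO libraries. Listed genes that were not in both tables (Bmp8a, Bmp10, Gdf1, Gdf3, Gdf6, Gdf7, Nodal, Tdgf1) were not analysed here.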

Additional observations from a re-analysis of the deposited data

How the results depend on the processing

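The count of members called between genotypes was 0 under each alternative tried. Over all genes the count was 1 with library totals in place of TMM and 5 with DESeq2, against 0 with edgeR. Of 285 refits of the 57 named genes under these alternatives, 280 kept the direction. Leaving out a cKO library is not among these, since it left a log2 ratio to floxed and no fit. The sign of that ratio differed between leaving out cKO 1 and leaving out cKO 2 for 29 of the 57, 19 of them members. Examples are Tgfbr2 (-1.29 and 0.34) and Nbl1 (-1.89 and 0.47). With library totals Bmp3 (-0.0021), Tgfbr1 (-0.01) and Inha (-0.0074) changed sign, and with limma-voom Inha (-0.0028) and Tgfbi (-0.47) did; the cause was not tested. The smallest adjusted p among them was 0.9997. The median log2 fold of the members ranged from -0.11 (without cKO 1) to 0.09 (without cKO 2), and these end values are medians of ratios without a fit. Leaving out a cKO library leaves no residual degree of freedom, so no count of called genes was run, and the only floxed library could not be left out. At a threshold of 2-fold, the members higher in cKO 1 than in floxed numbered 0 instead of 1, since Bmpr1b lies between; those higher in cKO 1 than in cKO 2 numbered 8, as with TMM scaling, where 9 are reported. No paired analysis was possible because there was 1 floxed library and the columns carry no shared replicate numbers. With 1 floxed library, the spread of that group could not be measured.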
